A study of Mus musculus with 20 samples.

Results

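FoxO and glucocorticoid target genes are described here in mouse heart as 10 genes of 25851 in the deposited table: Trim63, Fbxo32, Depp1, Ddit4, Txnip, Arrdc2, Klf15, Fkbp5, Tsc22d3 and Zbtb16. The members were taken by gene symbol, and the symbols were chosen by their FPKM in these same libraries and by their relation to the clock gene Arntl. Their levels, fold changes and relation to Arntl are therefore given as a description, without p-values. Tests are given for other genes of the same pathways. Hearts came from 20 male mice aged 14 to 16 weeks, with 5 mice in each of 4 groups. The groups were trained mice whose label gives a knockout of PGC-1α in cardiomyocytes (labelled knockout), trained wild-type mice, sedentary labelled knockout mice and sedentary wild-type mice. Training was 6 weeks of voluntary wheel running. PGC-1α, encoded by Ppargc1a, is a coactivator of mitochondrial and oxidative genes. The labels do not name the Cre driver, the floxed allele or the strain, nor the hour at which hearts were collected.

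FoxO proteins are transcription factors that are held out of the nucleus when insulin or growth factor signals activate AKT, and that enter it when these signals are low. In the nucleus they switch on genes for protein breakdown, autophagy, stress defence and the sparing of glucose. Glucocorticoids are adrenal steroids whose blood level follows the time of day and stress. They bind the glucocorticoid receptor, encoded by Nr3c1, which then acts on DNA. In striated muscle both pathways meet on shared genes, among them the ubiquitin ligases of muscle atrophy, Trim63 and Fbxo32.

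Values are FPKM, reads scaled to exon length and library size, as deposited. Reads recovered from these values came to 14.2 to 30.4 M per library. Members had at least 149 reads in any library, the lowest being Arrdc2, so counting error was small beside the spread between mice. Fold changes are differences of log2(FPKM + 0.5) with SE from a limma fit of 13723 genes over the 4 groups, and a gene is called when its adjusted p is under 0.05. All 10 members passed the filter of a mean of at least 0.5 FPKM. Rescaling every library to a common sum (TPM) moved the median of all genes by 0.25 in the trained genotype comparison, 0.23 in the training comparison of labelled knockout hearts and 0.16 in the interaction. With it, the share of called genes that were higher came to 86.7%, 86.5% and 85.7% in these 3 comparisons, against 44.8%, 42.6% and 31.7% as deposited. In sedentary hearts the share was 73.0% with TPM and 52.4% as deposited, and in wild-type training it was 77.5% with TPM and 53.7% as deposited.

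The gene named in the genotype label was higher, not lower, in the labelled knockout hearts. Ppargc1a averaged 22.6 ± 3.01 FPKM in trained labelled knockout hearts and 15.8 ± 4.86 FPKM in trained wild-type hearts (SD, n = 5 each; limma adjusted p = 0.0387). It averaged 22.9 ± 4.41 FPKM in sedentary labelled knockout hearts and 12.3 ± 2.85 FPKM in sedentary wild-type hearts (limma adjusted p = 0.00471). FPKM per gene does not show which exons the reads cover. Directions below follow the labels. The summed level of 8 cardiomyocyte markers was 13486 to 15583 FPKM in trained labelled knockout hearts, 16298 to 21053 FPKM in trained wild-type hearts, 18996 to 22324 FPKM in sedentary labelled knockout hearts and 18634 to 23525 FPKM in sedentary wild-type hearts. These sums are as deposited, and FPKM of all genes together were also lowest in trained labelled knockout hearts, at 331880 to 398370. In these bulk samples, fewer cells of a type and less RNA per cell cannot be told apart.

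**Figure D1:**
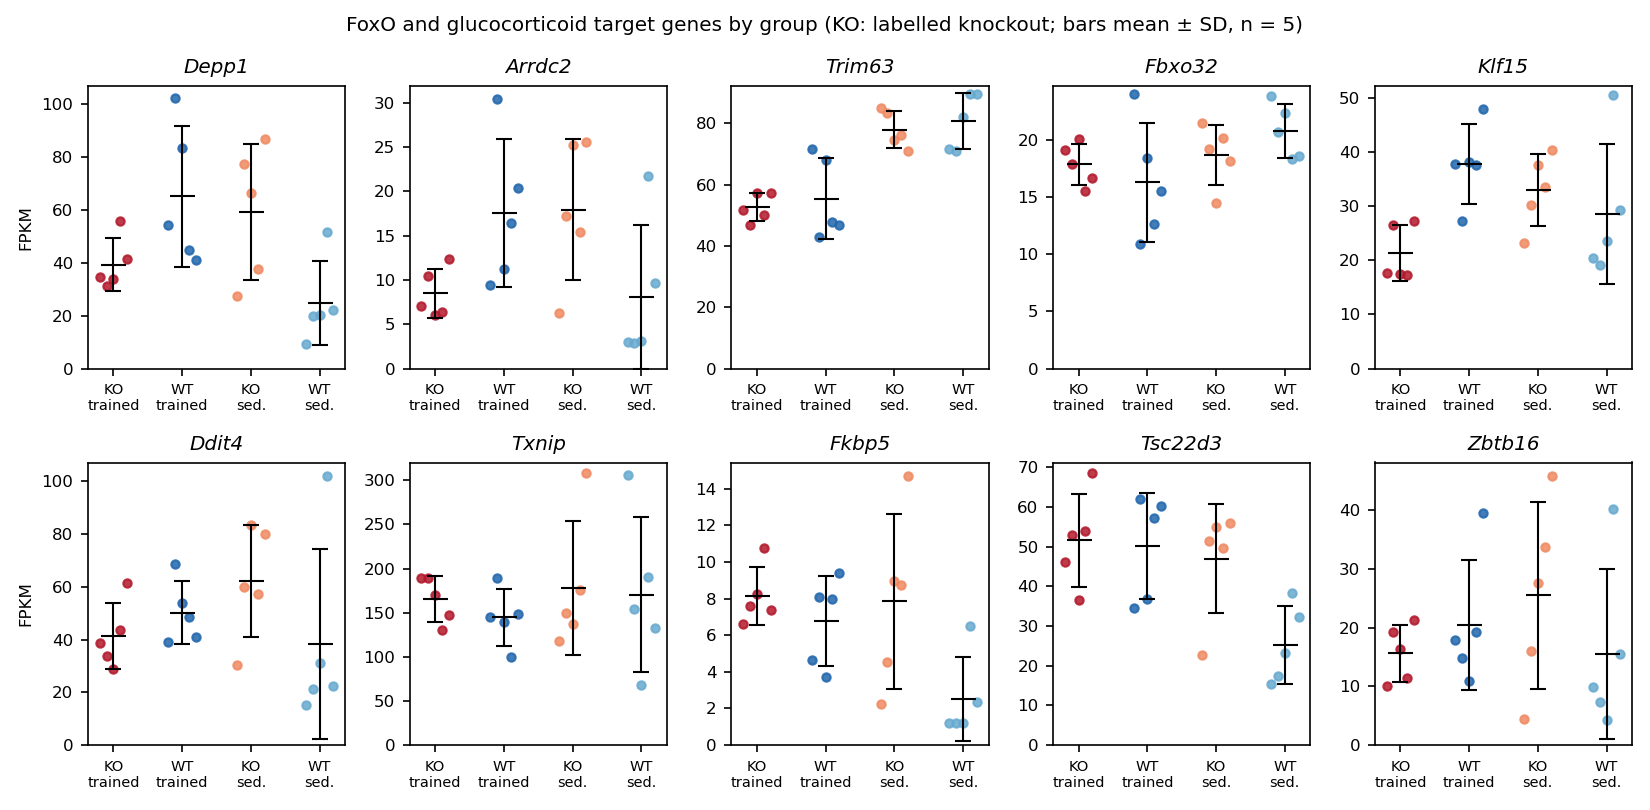
FPKM (vertical axis, from 0) of the 10 genes in each of 20 hearts, in the order trained labelled knockout (KO), trained wild-type (WT), sedentary labelled knockout and sedentary wild-type; points are mice, horizontal ticks are means and bars are SD, with n = 5. Trim63 of all trained labelled knockout hearts lay below all sedentary ones, whereas Fkbp5 and Arrdc2 held 1 sedentary wild-type mouse far above 3 others.

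The ubiquitin ligases came lowest in trained hearts for Trim63 and differed little between groups for Fbxo32. Trim63 (ENSMUSG00000028834, chromosome 4, 134315120 to 134329629, plus strand in GRCm38) encodes MuRF1, which marks sarcomere proteins for degradation. It had 51.7, 46.8, 57.3, 50.2 and 57.3 FPKM in trained labelled knockout hearts and 71.6, 43.0, 68.1, 47.6 and 46.8 FPKM in trained wild-type hearts. It had 84.95, 83.2, 74.4, 76.2 and 70.8 FPKM in sedentary labelled knockout hearts and 71.6, 71.1, 81.9, 89.4 and 89.5 FPKM in sedentary wild-type hearts. As deposited, all 5 trained labelled knockout hearts lay below all 5 sedentary labelled knockout hearts. FPKM of all genes together were 331880 in trained mouse 4 and 480960 in sedentary mouse 5, so with TPM trained mouse 4 passes sedentary mouse 5. Trained wild-type hearts split into 3 mice under 50 FPKM and 2 mice at 71.6 and 68.1 FPKM, and the upper pair overlapped the sedentary range. The training difference was -0.56 ± 0.12 in labelled knockout hearts and -0.56 ± 0.12 in wild-type hearts on the log2 scale. The genotype difference was -0.05 ± 0.12 in both trained and sedentary hearts, and with TPM 0.24 ± 0.11 in trained and 0.05 ± 0.11 in sedentary hearts, none called.

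Fbxo32 (ENSMUSG00000022358, chromosome 15, 58175879 to 58214932, minus strand) encodes atrogin-1, the partner ligase of muscle atrophy. It had 19.2, 18.0, 20.1, 15.5 and 16.7 FPKM in trained labelled knockout hearts and 24.1, 10.9, 18.4, 12.6 and 15.5 FPKM in trained wild-type hearts. The sedentary ranges were 14.5 to 21.5 FPKM in labelled knockout hearts and 18.4 to 23.9 FPKM in wild-type hearts. Every group overlapped every other. In trained wild-type hearts the 3 mice that were low in Trim63 were also the 3 lowest in Fbxo32. The training difference of Fbxo32 was -0.06 ± 0.16 in labelled knockout hearts (0.21 ± 0.15 with TPM) and -0.39 ± 0.16 in wild-type hearts.

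The promoter of Trim63 is shown because it holds a FoxO core next to a palindrome of glucocorticoid response type. The run of capitals begins with GAACA and TGTTC spaced by 3 bases, whose first base lies at -208 from the start site, and ends, after 1 further base, with the FoxO core GTAAACA on the opposite strand. The sequence is from RefSeq on GRCm38.p6, chr4:134314870-134315169, plus strand, from 250 bases before to 50 after the start.
Trim63: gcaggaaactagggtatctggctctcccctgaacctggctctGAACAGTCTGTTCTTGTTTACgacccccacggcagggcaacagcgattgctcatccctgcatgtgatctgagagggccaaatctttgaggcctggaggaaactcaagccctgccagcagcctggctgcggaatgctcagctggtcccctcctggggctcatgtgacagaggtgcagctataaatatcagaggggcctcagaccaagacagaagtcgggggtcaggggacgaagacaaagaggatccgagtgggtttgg
Of 32851 promoter windows in the RefSeq table, 3.65% held GTAAACA on either strand and 0.0578% held the palindrome. The palindrome was searched after the sequence had been read. The full element, AGAACA and TGTTCT spaced by 3 bases, was in 0.00913% of all windows and in no window of a member. Its arm AGAACA, which overlaps the palindrome in Trim63, was in 19% of all windows and, among the members, in Trim63 and Tsc22d3. Windows were found for 8 of the 10 members. These are matches of letters, with no measurement of binding.

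Depp1 and Ddit4, a pair of FoxO targets that also respond to glucocorticoids, had their lowest group mean in sedentary wild-type hearts and varied widely from mouse to mouse. Depp1 (ENSMUSG00000048489, chromosome 6, 116650609 to 116652794, plus strand) encodes a protein that is induced by fasting and FoxO and modulates autophagy. It had 34.5, 31.1, 33.9, 55.9 and 41.2 FPKM in trained labelled knockout hearts and 54.2, 102, 83.4, 44.7 and 41.0 FPKM in trained wild-type hearts. It had 27.6, 77.5, 66.5, 37.7 and 86.9 FPKM in sedentary labelled knockout hearts and 9.45, 20.0, 20.1, 51.7 and 22.05 FPKM in sedentary wild-type hearts. Of the sedentary wild-type mice 4 lay at or under 22.05 FPKM, below every mouse of the other groups, and the mouse numbered 4 stood at 51.7 FPKM. The trained against sedentary difference was -0.49 ± 0.37 in labelled knockout hearts and 1.497 ± 0.374 in wild-type hearts.

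Ddit4 (ENSMUSG00000020108, chromosome 10, 59949669 to 59951834, minus strand) encodes REDD1, an inhibitor of the growth kinase complex mTORC1. It had 38.7, 33.7, 28.8, 43.5 and 61.4 FPKM in trained labelled knockout hearts and 39.0, 68.7, 53.9, 48.4 and 41.0 FPKM in trained wild-type hearts. It had 30.5, 59.9, 83.5, 57.4 and 80.1 FPKM in sedentary labelled knockout hearts and 15.2, 21.3, 30.9, 102 and 22.4 FPKM in sedentary wild-type hearts. The highest and the 3 lowest values of the 20 hearts were all in the sedentary wild-type group. Its genotype difference in sedentary hearts was 0.97 ± 0.38 with all mice, and 1.41 ± 0.27 without the wild-type mouse at 102 FPKM, when it was called.

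The α-arrestin family members Txnip and Arrdc2 did not vary alike. Txnip (ENSMUSG00000038393, chromosome 3, 96557957 to 96561883, plus strand) encodes a thioredoxin-binding protein that limits glucose uptake and is induced by glucose through MondoA and ChREBP. It was the most abundant member, at 131 to 189.8 FPKM in trained labelled knockout hearts, 99.7 to 189.7 FPKM in trained wild-type hearts, 118 to 308 FPKM in sedentary labelled knockout hearts and 67.7 to 306 FPKM in sedentary wild-type hearts. Sedentary ranges were the wider and enclosed most trained values. As deposited, the 4 pairwise differences of Txnip lay between -0.10 ± 0.30 and 0.21 ± 0.30 on the log2 scale. The difference in trained hearts was 0.50 ± 0.30 with TPM, and that in sedentary hearts was 0.14 ± 0.30 with all mice and 0.46 ± 0.37 without the 5 hearts with high Arntl, and none was called.

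The promoter of Txnip is shown because it holds a FoxO core and, closer to the start, a pair of CACGAG boxes spaced by 5 bases, the arrangement of the carbohydrate response element that MondoA and ChREBP bind. Both are in capitals, with first bases at -121 and -85 from the start, on RefSeq GRCm38.p6, chr3:96557707-96558006, plus strand.
Txnip: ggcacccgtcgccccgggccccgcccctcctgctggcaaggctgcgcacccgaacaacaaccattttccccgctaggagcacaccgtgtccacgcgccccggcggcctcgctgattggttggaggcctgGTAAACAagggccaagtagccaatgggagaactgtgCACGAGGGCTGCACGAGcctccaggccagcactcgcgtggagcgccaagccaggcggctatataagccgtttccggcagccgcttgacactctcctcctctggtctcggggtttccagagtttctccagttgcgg
The paired boxes, also searched after the sequence had been read, were in 1 of 32851 windows, that of Txnip.

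Arrdc2 (ENSMUSG00000002910, chromosome 8, 70835129 to 70839720, minus strand) encodes an arrestin-domain protein that rises in muscle with glucocorticoids and fasting. It had 7.06, 10.5, 6.09, 6.37 and 12.3 FPKM in trained labelled knockout hearts and 9.43, 30.4, 11.3, 16.4 and 20.4 FPKM in trained wild-type hearts. It had 6.31, 17.2, 25.2, 15.4 and 25.5 FPKM in sedentary labelled knockout hearts and 3.04, 2.88, 3.05, 21.7 and 9.67 FPKM in sedentary wild-type hearts. The 3 lowest mice of the sedentary wild-type group lay close together and below all other mice, while mouse 4 of that group, at 21.7 FPKM, lay inside the sedentary labelled knockout range. The genotype difference was -0.94 ± 0.48 in trained hearts and 1.41 ± 0.48 in sedentary hearts, and neither was called. In sedentary hearts it was called with TPM (1.498 ± 0.472), with a filter at 2 FPKM, with the replicate block, and without wild-type mouse 4 or 5 or labelled knockout mouse 1, at 1.87, 1.59 and 1.73. In trained hearts it was called lower with only the trained groups in the fit (-0.94 ± 0.31) and without the 5 high-Arntl hearts (-0.94 ± 0.29).

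Klf15 (ENSMUSG00000030087, chromosome 6, 90462576 to 90475238, plus strand) encodes a glucocorticoid-induced transcription factor that promotes amino acid and lipid use and restrains cardiac growth. It had 17.6, 26.6, 17.5, 17.4 and 27.2 FPKM in trained labelled knockout hearts and 37.8, 27.3, 38.2, 37.6 and 48.0 FPKM in trained wild-type hearts. It had 23.2, 30.2, 37.6, 33.6 and 40.3 FPKM in sedentary labelled knockout hearts and 20.3, 19.02, 23.5, 50.4 and 29.2 FPKM in sedentary wild-type hearts. As deposited, the trained groups did not overlap, although the highest labelled knockout mouse, at 27.2 FPKM, nearly met the lowest wild-type mouse, at 27.3 FPKM. FPKM of all genes together were 398370 in that labelled knockout mouse and 462290 in that wild-type mouse, so with TPM the groups overlap. The genotype difference in trained hearts was -0.83 ± 0.23, and it stayed called without any single library. With TPM scaling it was -0.54 ± 0.23 and not called. Relative to the median of all genes it was -0.78 with TPM and -0.82 as deposited.

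The promoter of Klf15 is shown for its 3 copies of the E-box CACGTG, the core that clock and other basic helix-loop-helix factors bind. They are in capitals and begin at -228, -172 and -3 from the start, on RefSeq GRCm38.p6, chr6:90462326-90462625, plus strand.
Klf15: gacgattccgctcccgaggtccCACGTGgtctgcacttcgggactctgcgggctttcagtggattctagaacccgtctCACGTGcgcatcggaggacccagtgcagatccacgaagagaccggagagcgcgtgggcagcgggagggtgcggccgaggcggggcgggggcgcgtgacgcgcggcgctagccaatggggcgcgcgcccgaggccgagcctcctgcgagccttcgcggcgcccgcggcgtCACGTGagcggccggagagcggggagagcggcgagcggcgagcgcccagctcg
CACGTG was in 7.15% of all windows and, among the members, in those of Klf15 and Fkbp5.

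The glucocorticoid receptor targets Fkbp5, Tsc22d3 and Zbtb16 had their lowest group mean in sedentary wild-type hearts, where Fkbp5 and Tsc22d3 averaged 2.49 ± 2.29 and 25.3 ± 9.80 FPKM (SD, n = 5). Zbtb16 averaged 15.5 ± 14.5 FPKM there, nearly the same as the 15.7 ± 4.85 FPKM of trained labelled knockout hearts. Fkbp5 (ENSMUSG00000024222, chromosome 17, 28399094 to 28517527, minus strand) encodes FKBP51, a cochaperone that lowers the receptor's affinity for hormone. It had 6.60, 7.59, 8.23, 10.7 and 7.39 FPKM in trained labelled knockout hearts and 4.65, 8.11, 3.69, 7.99 and 9.42 FPKM in trained wild-type hearts. It had 2.22, 4.55, 8.98, 8.74 and 14.7 FPKM in sedentary labelled knockout hearts and 1.19, 1.22, 1.21, 6.49 and 2.35 FPKM in sedentary wild-type hearts. Of the sedentary wild-type mice 3 stood at a common low level, with mouse 4 far above them. The genotype difference in sedentary hearts was 1.51 ± 0.42, and the training difference in wild-type hearts was 1.46 ± 0.42.

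Tsc22d3 (ENSMUSG00000031431, chromosome X, 140539528 to 140600659, minus strand) encodes GILZ, a leucine zipper protein that carries anti-inflammatory effects of glucocorticoids. It had 46.1, 52.9, 36.6, 54.0 and 68.5 FPKM in trained labelled knockout hearts and 34.5, 61.9, 36.9, 57.1 and 60.1 FPKM in trained wild-type hearts. It had 22.8, 51.3, 54.9, 49.7 and 55.9 FPKM in sedentary labelled knockout hearts and 15.3, 17.4, 23.2, 38.2 and 32.3 FPKM in sedentary wild-type hearts. The sedentary groups overlapped only through labelled knockout mouse 1, at 22.8 FPKM, which lay below 3 of the wild-type mice. Its genotype difference in sedentary hearts was 0.90 ± 0.27.

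Zbtb16 (ENSMUSG00000066687, chromosome 9, 48654297 to 48836222, minus strand) encodes the zinc finger repressor PLZF, which glucocorticoids induce in several tissues. It had the widest spread inside groups of all members, with a residual SD of 0.87 on the log2 scale. It ranged from 10.1 to 21.3 FPKM in trained labelled knockout hearts, from 10.98 to 39.6 FPKM in trained wild-type hearts, from 4.51 to 45.9 FPKM in sedentary labelled knockout hearts and from 4.24 to 40.2 FPKM in sedentary wild-type hearts. All groups overlapped, and the genotype difference in sedentary hearts was 0.77 ± 0.55.

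Ordered by group mean, sedentary wild-type hearts came last for 6 members, Depp1, Arrdc2, Ddit4, Fkbp5, Tsc22d3 and Zbtb16, and first for Trim63 and Fbxo32. The margin to trained labelled knockout hearts was small for Zbtb16 (15.5 against 15.7 FPKM), Arrdc2 (8.08 against 8.47 FPKM) and Ddit4 (38.4 against 41.2 FPKM). Klf15 and Trim63 had their lowest mean in trained labelled knockout hearts, and Fbxo32 and Txnip in trained wild-type hearts. For every member, groups next to each other in this order overlapped in their values.

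**Figure D2:**
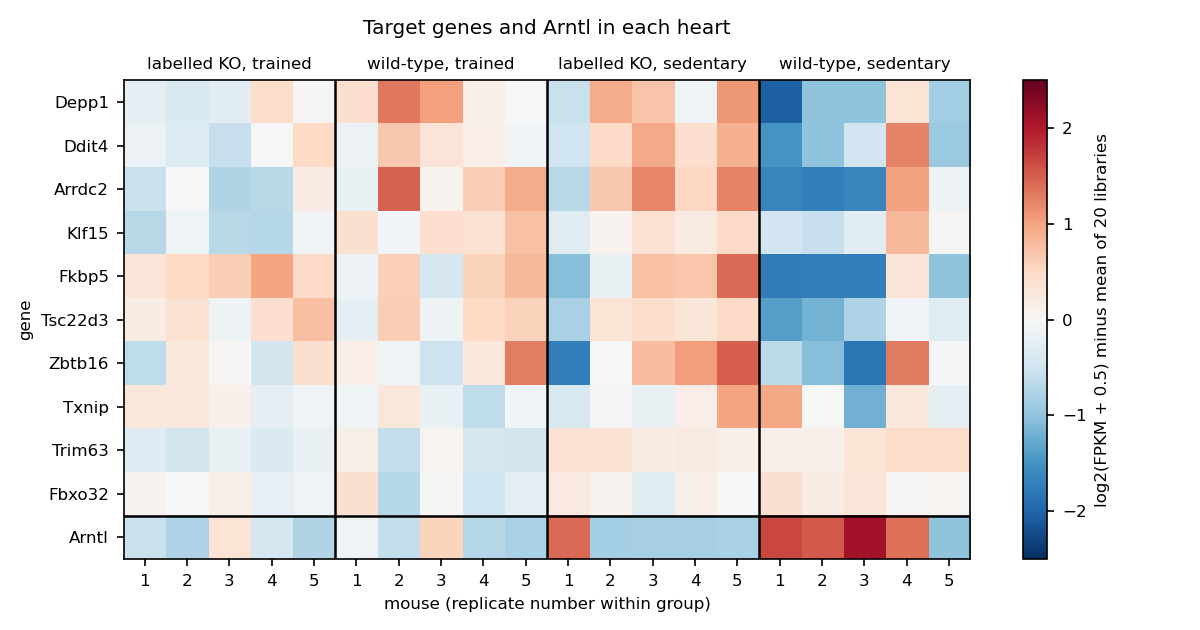
Each cell is log2(FPKM + 0.5) of a gene (row) in a heart (column, by replicate number) minus that gene's mean over 20 hearts, with red for higher and blue for lower; black lines part the groups and the Arntl row. Sedentary wild-type mice 1 to 3 and sedentary labelled knockout mouse 1 are blue in the upper 7 rows, and sedentary wild-type mouse 4 is red in 6 of them although its Arntl is high.

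Genotype was compared in sedentary hearts. Of the 10 members 3 were called higher in labelled knockout hearts, Depp1 (1.33 ± 0.37), Fkbp5 and Tsc22d3, and 0 were called lower. Over all genes tested 6.96% were called higher and 6.32% lower. No member lay apart between the groups, where 5.14% of all genes were higher and 5.29% lower without overlap. The median difference of the members was 0.83, and that of all genes was -0.01. The calls rested on few mice. Each of the 3 was lost when any of the sedentary wild-type mice 1, 2 or 3 was left out, at 1.04, 1.30 and 1.31 for Depp1, 1.36, 1.37 and 1.37 for Fkbp5 and 0.74, 0.78 and 0.89 for Tsc22d3. Labelled knockout mice 3 and 5 had the same effect on all 3 genes, mouse 2 on Depp1 and Tsc22d3, and mouse 4 on Fkbp5 and Tsc22d3. Arrdc2 (1.87 ± 0.41) and Ddit4 (1.41 ± 0.27) became called without wild-type mouse 4, so that 5 members were then higher. The same 5 were higher without labelled knockout mouse 1, with Arrdc2 at 1.73 and Ddit4 at 1.21.

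Training was compared in wild-type hearts against the same sedentary mice, so these values share their reference with the genotype comparison. Depp1 (1.497 ± 0.374), Fkbp5 (1.46 ± 0.42) and Tsc22d3 (1.01 ± 0.27) were called higher in trained hearts and Trim63 (-0.56 ± 0.12) lower, where 2.94% of all genes were called higher and 2.53% lower. No member lay apart, where 2.24% of all genes were higher and 1.68% lower without overlap. The median of the members was 0.69, against -0.01 for all genes. The calls of Depp1 and Tsc22d3 were lost without sedentary mouse 1, 2 or 3 and without trained mouse 2 or 4, that of Tsc22d3 also without trained mouse 5, and that of Trim63 without trained mouse 2, 4 or 5. The call of Fkbp5 was lost on leaving out any of 15 single mice. Of these 8 were labelled knockout mice outside the comparison, and without them its fold stayed at 1.46. Without sedentary mouse 4, Arrdc2 (1.87), Ddit4 (1.16) and Klf15 (0.70) became called, which made 6 members higher.

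Training in labelled knockout hearts gave another picture. Trim63 (-0.56 ± 0.12) and Klf15 (-0.63 ± 0.23) were called lower in trained hearts and no member was called higher, where 16.3% of all genes were called lower and 12.1% higher. The median of the members was -0.45, against -0.02 for all genes. The call of Trim63 held without any single library and under every other setting tried, with -0.29 under TPM. Relative to the median of all genes, Trim63 was at -0.50 with TPM and -0.54 as deposited. The call of Klf15 was lost without labelled knockout sedentary mouse 2, 3, 4 or 5, trained mouse 1, 3 or 4, or wild-type trained mouse 3 or 4, at -0.65 to -0.55, and with TPM, at -0.36. Without the 5 hearts with high Arntl, which include sedentary labelled knockout mouse 1, Arrdc2 (-1.27) and Ddit4 (-0.79) were called lower as well.

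Genotype in trained hearts left 1 member called, Klf15, which was lower, where 15.4% of all genes were called lower and 12.5% higher. The median of the members was -0.17, against -0.01 for all genes. As deposited, groups without overlap were found for Trim63 in training of labelled knockout hearts, where 13.7% of all genes were lower and 8.96% higher without overlap. They were also found for Klf15 in trained hearts, where 11.1% were lower and 8.07% higher. With TPM neither gene kept its groups apart. With TPM scaling Fbxo32 was called higher in trained labelled knockout hearts, at 0.46 ± 0.15.

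The interaction is the training difference in labelled knockout hearts minus that in wild-type hearts. Depp1 (-1.99 ± 0.53), Arrdc2 (-2.36 ± 0.68) and Klf15 (-1.10 ± 0.32) were called lower and no member higher, where 5% of all genes were called lower and 2.32% higher. The median was -1.08 for the members and -0.01 for all genes. Each of the 3 calls was lost without sedentary wild-type mouse 1, 2 or 3, sedentary labelled knockout mouse 2, 3 or 5, trained wild-type mouse 3 and trained labelled knockout mouse 1 or 3. Each was also lost with TPM, with log2 Arntl as a covariate, with no filter and without the 5 high-Arntl hearts. For Depp1, Arrdc2 and Klf15 the values were then -1.80, -2.17 and -0.91 with TPM, -1.74, -1.53 and -0.86 with the covariate, -1.99, -2.36 and -1.10 with no filter, and -2.18, -1.98 and -1.09 without the high-Arntl hearts. The ligases did not share this sign, at 0.00 ± 0.18 for Trim63 and 0.33 ± 0.22 for Fbxo32.

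**Figure D3:**
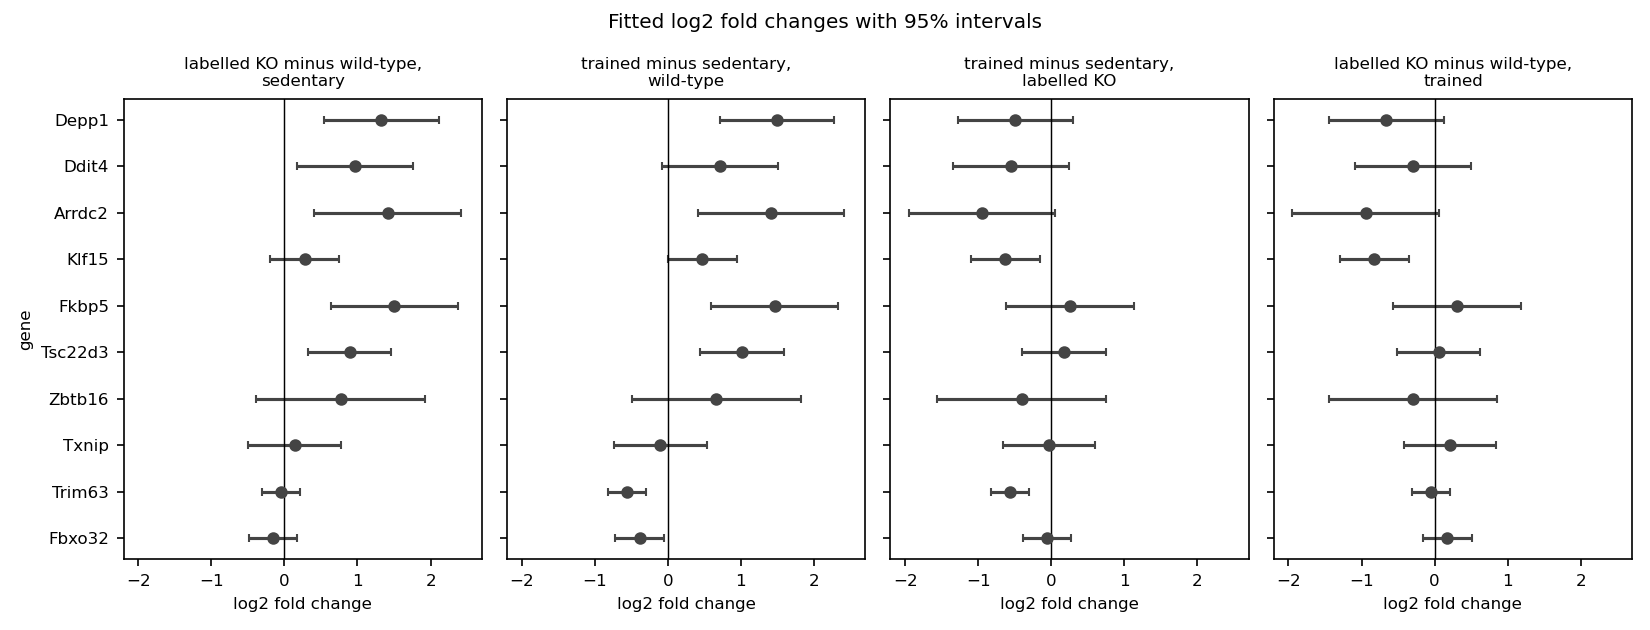
Fitted log2 fold changes (horizontal axis) with 95% intervals of the 10 genes in 4 pairwise comparisons. In sedentary hearts the interval of Fkbp5 runs from 0.63 to 2.38, and in trained hearts that of Klf15 runs from -1.30 to -0.35.

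Arntl encodes BMAL1, the activator of the circadian clock. It had 0.268, 0.167, 0.937, 0.342 and 0.171 FPKM in trained labelled knockout hearts and 0.564, 0.254, 1.16, 0.192 and 0.150 FPKM in trained wild-type hearts. It had 2.504, 0.132, 0.137, 0.136 and 0.150 FPKM in sedentary labelled knockout hearts and 3.13, 2.78, 4.36, 2.46 and 0.0658 FPKM in sedentary wild-type hearts. The hearts thus fell into 5 with 2.46 to 4.36 FPKM, all sedentary and 4 of them wild-type, and 15 with 0.0658 to 1.16 FPKM. Because of this gap no correlation of the values themselves was taken over all 20 hearts. On deviations from group means, r with Arntl was -0.73 for Tsc22d3, -0.62 for Arrdc2, -0.59 for Zbtb16 and -0.52 for Fkbp5. It was -0.39 to 0.46 for the other members. These deviations include sedentary labelled knockout mouse 1, far from its group in Arntl, and the values are descriptive.

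In the 5 hearts with high Arntl, Tsc22d3 ranged from 15.3 to 38.2 FPKM with a median of 22.8, against 32.3 to 68.5 FPKM with a median of 52.9 in the other 15. Fkbp5 ranged from 1.19 to 6.49 FPKM with a median of 1.22, against 2.35 to 14.7 FPKM with a median of 7.99. Arrdc2 ranged from 2.88 to 21.7 FPKM with a median of 3.05, against 6.09 to 30.4 FPKM with a median of 12.3. The ranges overlapped for each of the 10 members. For Depp1, Arrdc2, Fkbp5, Tsc22d3 and Zbtb16, the overlap included sedentary wild-type mouse 4, at an Arntl of 2.46 FPKM. For Ddit4 and Klf15, at 102 and 50.4 FPKM, this mouse lay above all of the other 15 hearts, which reached 83.5 and 48.0 FPKM. It was the highest of its group for all 7 of these genes. Sedentary labelled knockout mouse 1, at an Arntl of 2.504 FPKM, was the lowest of its group for the same 7.

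Trim63, Fbxo32 and Txnip had no lower median in the high-Arntl hearts. Their medians there were 81.9, 21.5 and 154 FPKM, against 57.3, 18.2 and 149 FPKM in the others. All high-Arntl hearts were sedentary, and the sedentary hearts with low Arntl had Trim63 of 70.8 to 89.5 FPKM. In the high-Arntl hearts Trim63 ranged from 71.1 to 89.4 FPKM, against 43.0 to 89.5 FPKM in the others, Fbxo32 from 18.4 to 23.9 FPKM, against 10.9 to 24.1 FPKM, and Txnip from 67.7 to 306 FPKM, against 99.7 to 308 FPKM. Among trained wild-type hearts, the pair with the higher Arntl, at 0.564 and 1.16 FPKM, was the pair with the higher Trim63, at 71.6 and 68.1 FPKM. Mice 4 and 5 of that group, which were low in Trim63, also had the atrial marker Myl7 at 1975 and 3484 FPKM.

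Within the 15 hearts with low Arntl, Pearson's r of log2 values with Arntl was -0.53 for Tsc22d3, -0.47 for Arrdc2 and -0.47 for Zbtb16, and -0.21 to 0.29 for the other 7 members. Spearman's rho was -0.15, -0.49 and -0.49 for the first 3. Without the 2 hearts farthest from the median Arntl, r for Tsc22d3 was -0.22, so that relation rested on these 2. These hearts differ in group as well as in Arntl, and the values are descriptive.

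**Figure D4:**
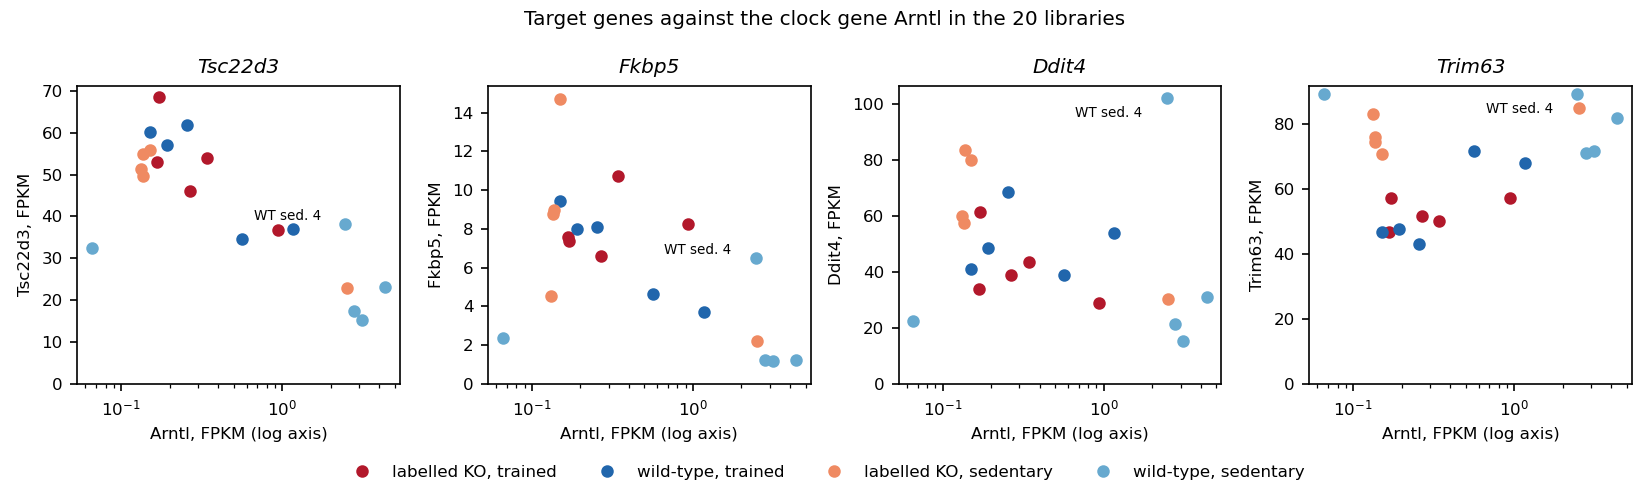
FPKM of 4 members (vertical axes, from 0) against Arntl (horizontal log axis, FPKM) in 20 hearts, coloured by group. At the right, Tsc22d3, Fkbp5 and Ddit4 are lower in 4 of the 5 hearts with high Arntl than in sedentary wild-type mouse 4, whereas Trim63 is high in all 5. Tsc22d3 of mouse 4, at 38.2 FPKM, is still below the median of 52.9 FPKM in the other 15 hearts. Ddit4 of 30.5 and 30.9 FPKM in 2 of the 4 lies inside the range of the other 15, which starts at 22.4 FPKM.

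With log2 Arntl as a covariate, 0 members were called higher in the sedentary genotype comparison or in wild-type training by limma. The sedentary genotype difference was then 1.06 ± 0.45 for Depp1, 0.85 ± 0.44 for Fkbp5, 0.52 ± 0.47 for Arrdc2 and 0.30 ± 0.23 for Tsc22d3. Without the 5 high-Arntl hearts these values were 1.52, 1.67, 1.03 and 0.70, none called, with a single sedentary wild-type mouse left, which is then assumed to vary like the other groups. That mouse, number 5, combined the lowest Arntl of all hearts with a Depp1 of 22.05 FPKM and a Fkbp5 of 2.35 FPKM, the lowest among the 15 hearts with low Arntl. Arntl and the sedentary wild-type group largely coincide, and their parts in these differences cannot be told apart. The call of Klf15 in trained hearts was kept with the covariate, at -0.84 ± 0.21.

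The glucocorticoid receptor gene itself, named here after its values were seen, ran opposite to its targets in the sedentary mice. Nr3c1 had 12.7, 7.999, 6.68, 6.90 and 6.52 FPKM in sedentary labelled knockout hearts and 13.4, 10.9, 14.7, 6.60 and 8.31 FPKM in sedentary wild-type hearts. Its 4 values above 10 FPKM were in the same 4 mice whose targets were low, and mouse 4 of the wild-type group had the lowest receptor level of its group. This pattern was not particular to Nr3c1. Pik3ca, Nrip1 and Zbtb20 were also highest of the sedentary labelled knockout group in mouse 1. They were lowest of the sedentary wild-type group in mouse 4. Trained hearts ranged from 7.59 to 9.55 FPKM in the labelled knockout group and from 6.62 to 8.33 FPKM in the wild-type group. The group differences of Nr3c1 did not pass in any comparison, with a sedentary genotype difference of -0.37 ± 0.18 (limma adjusted p = 0.185).

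After group means were removed, 7 of the members still varied together from mouse to mouse. Of all 45 pairs of members, 33 had r above 0. The 7 leave out Trim63, Fbxo32 and Txnip, which correlated less with them, so the range below depends on that choice. Among Depp1, Ddit4, Arrdc2, Klf15, Fkbp5, Tsc22d3 and Zbtb16, the 21 pairs had Pearson's r of 0.37 to 0.90 over 20 hearts, with a median of 0.71. The closest pair was Arrdc2 and Tsc22d3 at 0.90, followed by Fkbp5 and Zbtb16 at 0.87. Trim63 and Fbxo32 had r = 0.61 with each other. Fbxo32 ran against the 7, at -0.69 to -0.16, Trim63 was at -0.28 to 0.19, and Txnip at 0.03 to 0.48. Over the 14 hearts that remain without the high-Arntl hearts and the last sedentary wild-type mouse, the 21 pairs ranged from -0.48 to 0.85 with a median of 0.29. The points share their libraries and scaling, and the values are descriptive.

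**Figure D5:**
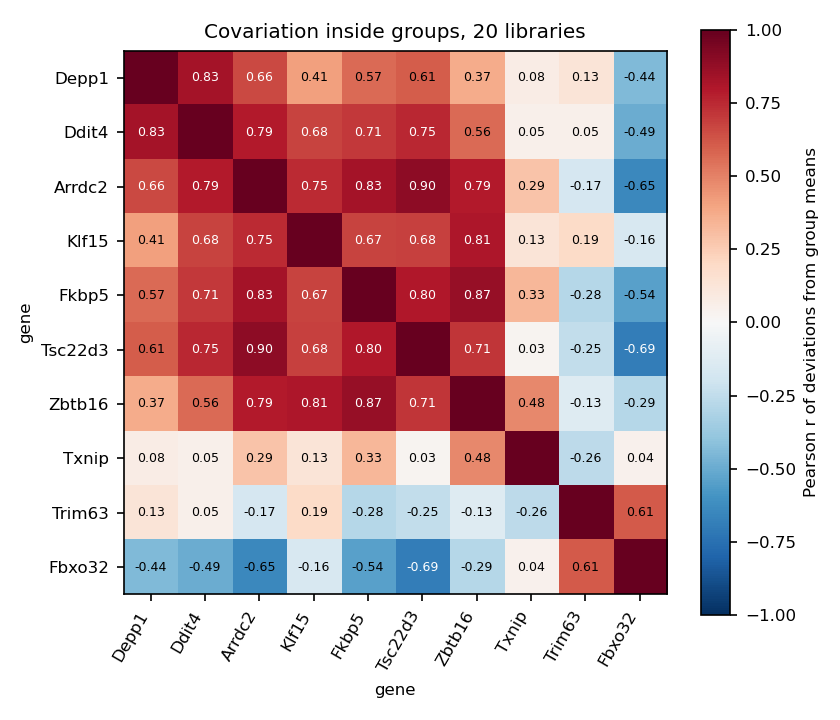
Pearson's r between genes (rows and columns) over 20 hearts, computed on deviations of log2(FPKM + 0.5) from group means, with red for positive and blue for negative. The upper left block of 7 genes holds r of 0.37 to 0.90, and Fbxo32 has negative r with all 7 of them.

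The genes most like each member by the same measure, among 11761 genes with a mean of at least 1 FPKM, were taken from the first 3 for each. Sgk1, a kinase induced by corticosteroids, was closest to Depp1 (r = 0.91) and to Ddit4 (r = 0.89). Kmt2d and S1pr1 came next for Depp1, and Rhob and Nfkbia for Ddit4. Nfkbia, the inhibitor of NF-κB, was closest to Tsc22d3 (r = 0.94), before Max, and followed for Arrdc2 (r = 0.94) after the sulfotransferase gene Sult1a1 (r = 0.95) and the kinase gene Pim3 (r = 0.94). Fkbp5 was closest to Jade2 (r = 0.93), Bcl2l1 (r = 0.93) and Fam107a (r = 0.92). Klf15 was closest to the adenylyl cyclase gene Adcy6 (r = 0.94) and the annexin gene Anxa6 (r = 0.93), before Rasgef1b. Zbtb16 was closest to Wbp1l (r = 0.90), Med25 and Klf13, and Txnip to Klf10 (r = 0.82), Syngr1 and a gene with the ID ENSMUSG00000095041. Fbxo32 was closest to Scrn3 (r = 0.95), Grsf1 and Oxnad1, and Trim63 to Gm15163 (r = 0.90), Mb21d2 and Ifngr2. Among the members, Ddit4 ranked 8 for Depp1 and Zbtb16 ranked 11 for Fkbp5, while Fbxo32 ranked 501 for Trim63. Other members lay farther down. For Depp1, Fkbp5 ranked 611, Klf15 1972 and Zbtb16 2450, and Depp1 ranked 1383 for Tsc22d3. Klf15, at r = 0.75 with Arrdc2, ranked 349 for it, so many genes outside the members were closer.

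Other glucocorticoid targets, 26 of 27 measured, rose in 10 cases and fell in 0 in the sedentary genotype comparison, with a median of 0.61 against -0.01 for all genes. Over all genes 6.96% were called higher and 6.32% lower there. Ptgds, the gene of lipocalin-type prostaglandin D synthase, averaged 532.3 ± 129 FPKM in sedentary labelled knockout hearts and 158 ± 65.1 FPKM in sedentary wild-type hearts (log2 fold change 1.85 ± 0.28, limma adjusted p = 0.000266). Lcn2, the gene of lipocalin 2, averaged 1.76 ± 0.81 FPKM and 0.54 ± 0.22 FPKM in these groups (1.07 ± 0.23, limma adjusted p = 0.00391). Both held without any single library. The gene of the transcription factor C/EBPδ, Cebpd, rose by 1.03 ± 0.27 (limma adjusted p = 0.0153), a call lost without sedentary wild-type mouse 1 or 3. The count of 10 moved to 2 without sedentary wild-type mouse 1 or 3, 4 without mouse 2, 5 without labelled knockout mouse 2 or 3, 3 without mouse 4 or 5, and 15 without labelled knockout mouse 1 or wild-type mouse 4. It was 3 with log2 Arntl as a covariate, 0 without the 5 high-Arntl hearts and 4 without the 4 hearts with high Myl7, 3 with only the sedentary groups in the fit and 4 with no filter.

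In wild-type training, 6 of these 26 genes rose and 1 fell, with a median of 0.49. Over all genes 2.94% rose and 2.53% fell there. Cebpd averaged 15.2 ± 5.26 FPKM in trained and 5.94 ± 2.10 FPKM in sedentary wild-type hearts (1.27 ± 0.27, limma adjusted p = 0.0152), a call lost without trained mouse 4. Map3k6 (1.63 ± 0.38, limma adjusted p = 0.0232) was lost without 5 single mice, sedentary mouse 1 or 3 or trained mouse 2, 4 or 5. The number that rose was 0 without trained mouse 4, 1 without trained mouse 5 or sedentary mouse 1, 2 without trained mouse 2 or sedentary mouse 2 or 3, and 0 with log2 Arntl as a covariate, without the 4 hearts with high Myl7 or with only the wild-type groups in the fit. In labelled knockout training 4 rose and 2 fell with a median of -0.01, and in trained hearts 4 were higher and 0 lower between genotypes with a median of 0.07. With TPM these counts were 7 and 1, and 9 and 0. As deposited, 12.1% of all genes rose and 16.3% fell in labelled knockout training. In trained hearts 12.5% were higher and 15.4% lower. Errfi1, a feedback inhibitor of the EGF receptor, rose in labelled knockout training to 15.2 ± 3.07 FPKM, against 8.57 ± 1.21 FPKM in sedentary labelled knockout hearts (0.78 ± 0.19, limma adjusted p = 0.00441). Ptgds fell there by 1.01 (limma adjusted p = 0.00998).

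Of the receptor's machinery, 12 of 13 genes measured, 0 were higher and 3 lower in trained labelled knockout hearts than in trained wild-type hearts, and 1 rose and 3 fell in labelled knockout training. Over all genes 12.5% were higher and 15.4% lower in the trained genotype comparison, and 12.1% rose and 16.3% fell in labelled knockout training. In sedentary hearts 0 were higher and 2 lower in the labelled knockout, and in wild-type training 2 rose and 0 fell. The count of 2 lower was 1 to 4, and that of 2 that rose 0 to 2, on leaving out single mice. Over all genes 6.96% were higher and 6.32% lower in sedentary hearts, and 2.94% rose and 2.53% fell in wild-type training. Fkbp4, which encodes FKBP52, the cochaperone that opposes FKBP51 on the receptor, averaged 80.8 ± 9.31 FPKM in trained labelled knockout hearts and 152 ± 21.1 FPKM in trained wild-type hearts (-0.90 ± 0.09, limma adjusted p = 5.24e-07). Against sedentary labelled knockout hearts, at 129 ± 3.18 FPKM, it fell by 0.67 (limma adjusted p = 3.17e-05). Hsd11b1, whose enzyme regenerates active glucocorticoid in tissue, averaged 2.89 ± 0.56 FPKM in trained labelled knockout hearts and 4.27 ± 0.61 FPKM in trained wild-type hearts (-0.50 ± 0.13, limma adjusted p = 0.00538). Nr0b2, which encodes the corepressor SHP, averaged 3.64 ± 0.57 FPKM and 7.69 ± 0.78 FPKM in these groups (-0.99 ± 0.12, limma adjusted p = 4.43e-06). These 3 genes held without any single library. With TPM the list had 1 higher and 2 lower genes in trained hearts, and 3 and 2 in labelled knockout training.

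Of the FoxO factors and the kinases upstream of them, 16 of 16 measured, 1 rose and 1 fell in labelled knockout training, with 7 and 0 under TPM. In trained hearts 2 were higher and 1 lower in the labelled knockout, with 5 and 0 under TPM. As deposited, 12.1% of all genes rose and 16.3% fell in labelled knockout training. In trained hearts 12.5% of all genes were higher and 15.4% lower. Foxo1 averaged 3.59 ± 0.33 FPKM in trained labelled knockout, 2.91 ± 0.42 in trained wild-type, 3.01 ± 0.37 in sedentary labelled knockout and 3.19 ± 0.39 in sedentary wild-type hearts. Foxo3 averaged 13.0 ± 0.64, 12.9 ± 3.20, 14.0 ± 1.78 and 12.5 ± 1.41 FPKM in the same order, and neither factor was called in any of the 5 comparisons. The insulin-like growth factor receptor gene Igf1r rose by 0.47 ± 0.10 in labelled knockout training (limma adjusted p = 0.00162) and was 0.51 ± 0.10 higher in trained labelled knockout than in trained wild-type hearts (limma adjusted p = 0.000683). Akt2, the gene of the AKT isoform of insulin signalling, was lower there at -0.31 ± 0.08 (limma adjusted p = 0.00634). The catalytic subunit gene Pik3cb was lower in sedentary labelled knockout than in sedentary wild-type hearts, at -0.48 ± 0.10 (limma adjusted p = 0.0049).

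Other FoxO targets, 27 of 27 measured, are given by their counts. In sedentary hearts 1 was higher and 2 were lower in the labelled knockout, with a median of -0.11. In wild-type training 0 rose and 1 fell, with a median of -0.12. The number that fell was 5 without trained mouse 1, 3 without sedentary labelled knockout mouse 1, 2 without trained mouse 3 or sedentary mouse 5, and 0 on leaving out any of 14 other single mice. In labelled knockout training 2 rose and 6 fell, with 8 and 4 under TPM, and in trained hearts 1 was higher and 6 lower in the labelled knockout, with 14 and 3 under TPM. Over all genes, as deposited, 12.1% rose and 16.3% fell in labelled knockout training, and 12.5% were higher and 15.4% lower in trained hearts. In sedentary hearts 6.96% were higher and 6.32% lower, and in wild-type training 2.94% rose and 2.53% fell. Pink1, the mitophagy kinase, averaged 172 ± 21.8 FPKM in trained labelled knockout hearts and 325 ± 10.9 FPKM in trained wild-type hearts (-0.92 ± 0.09, limma adjusted p = 2.2e-07). Sod2, the mitochondrial superoxide dismutase, averaged 25.2 ± 1.61 FPKM and 53.3 ± 7.92 FPKM (-1.06 ± 0.08, limma adjusted p = 2.82e-08). The lipase gene Pnpla2 was also lower there (-0.75 ± 0.14, limma adjusted p = 0.000456). Pink1 and Sod2 are nuclear genes of mitochondrial proteins, and PGC-1α acts on such genes as well.

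Metabolic and other genes linked to Klf15, 6 of 7 measured, were mostly lower in trained labelled knockout hearts, as Klf15 was. Whether Klf15 had a part in this was not tested. All 6 fell in labelled knockout training (median -0.77 against -0.02 for all genes), also with TPM and without any single library, and 5 were lower in trained labelled knockout hearts than in trained wild-type hearts (median -0.63 against -0.01), 4 with TPM. Over all genes, as deposited, 16.3% fell in labelled knockout training and 15.4% were lower in trained hearts. Gpt, alanine aminotransferase, averaged 5.13 ± 1.14 FPKM in trained labelled knockout hearts and 17.0 ± 2.87 FPKM in trained wild-type hearts (-1.65 ± 0.15, limma adjusted p = 1.36e-07). Bcat2, the branched-chain aminotransferase of mitochondria, averaged 17.0 ± 0.62 FPKM and 33.2 ± 4.08 FPKM (-0.94 ± 0.08, limma adjusted p = 6.09e-08). Slc2a4, the insulin-responsive glucose transporter, averaged 86.4 ± 5.28 FPKM and 142 ± 18.8 FPKM (-0.70 ± 0.10, limma adjusted p = 3.05e-05). The order was not that of Klf15 throughout. In sedentary hearts 1 was higher and 3 were lower in the labelled knockout, where 6.96% of all genes were higher and 6.32% lower. Gpt (-0.70 ± 0.15, limma adjusted p = 0.00353) and Bcat2 (-0.46 ± 0.08, limma adjusted p = 0.000633) were lower, while Klf15 was at 33.0 ± 6.69 FPKM against 28.5 ± 12.9 FPKM. Prodh averaged 10.1 ± 2.97 FPKM there against 5.42 ± 1.74 FPKM in sedentary wild-type hearts. In the interaction 5 were lower and 0 higher, and 2 were lower with log2 Arntl as a covariate. Over all genes 5% were lower and 2.32% higher in the interaction.

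Among partners of Ddit4 in the mTORC1 pathway, 12 of 12 measured, 3 were higher and 0 lower in sedentary labelled knockout hearts, with a median of 0.04. Over all genes 6.96% were higher and 6.32% lower there. The count of 3 was 1 without wild-type mouse 1, 2 or 3 or labelled knockout mouse 2, 3 or 5, and 0 with log2 Arntl as a covariate or without the 5 high-Arntl hearts. Sesn2, which encodes the leucine sensor that restrains mTORC1, averaged 2.40 ± 0.37 FPKM in sedentary labelled knockout hearts and 1.61 ± 0.24 FPKM in sedentary wild-type hearts (0.46 ± 0.11, limma adjusted p = 0.00837). It also differed in trained hearts (0.45 ± 0.11, limma adjusted p = 0.00335), and both held without any single library. Among MondoA, ChREBP and thioredoxin partners of Txnip, 10 of 10 measured, 1 rose and 4 fell in labelled knockout training, with 3 and 1 under TPM. In trained hearts 0 were higher and 3 lower in the labelled knockout, with 5 and 2 under TPM. As deposited, 12.1% of all genes rose and 16.3% fell in labelled knockout training. In trained hearts 12.5% of all genes were higher and 15.4% lower. The mitochondrial thioredoxin gene Txn2 averaged 33.6 ± 1.40 FPKM in trained labelled knockout hearts and 49.8 ± 2.26 FPKM in trained wild-type hearts (-0.56 ± 0.06, limma adjusted p = 2.1e-06). Of the paralogs of the members, 15 of 16 measured, 1 rose and 4 fell in labelled knockout training, with 5 and 1 under TPM. Trim54, the MuRF3 gene, was among those that fell, by 0.49 (limma adjusted p = 0.00252), and Klf10 rose by 0.64 ± 0.17 (limma adjusted p = 0.00736).

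Clock genes, 19 of 19 measured, had 1 higher and 1 lower gene in sedentary labelled knockout hearts, with a median of 0.34 against -0.01 for all genes, and 4 higher and 0 lower genes in wild-type training, with a median of 0.31. Over all genes 6.96% were higher and 6.32% lower in sedentary hearts, and 2.94% rose and 2.53% fell in wild-type training. In the sedentary comparison the counts were 8 and 3 without wild-type mouse 5, 6 and 3 without labelled knockout mouse 1, 2 and 0 without wild-type mouse 4, 0 and 1 without wild-type mouse 3, and 0 and 0 without wild-type mouse 1 or 2 or labelled knockout mouse 2, 3, 4 or 5. Per2, a clock repressor that glucocorticoids can induce, averaged 15.2 ± 6.42 FPKM in trained and 3.01 ± 3.57 FPKM in sedentary wild-type hearts (2.52 ± 0.55, limma adjusted p = 0.0171), a call lost without sedentary mouse 1 or 3 or trained mouse 4. The count of higher genes in wild-type training was 7 without sedentary mouse 5, 0 without sedentary mouse 1 or 3 or trained mouse 4, 1 without sedentary mouse 2 or trained mouse 5, and 2 without trained mouse 2 or any of 9 labelled knockout mice, all but sedentary mouse 1. It was 0 without the 5 high-Arntl hearts or the 4 hearts with high Myl7, and 1 with log2 Arntl as a covariate.

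Markers of other cell types moved with some of these groups, and their part in the results was not tested. The sum of 5 fibroblast markers was 266 to 372 FPKM in trained labelled knockout hearts and 115 to 188 FPKM in trained wild-type hearts, against 141 to 184 FPKM in sedentary labelled knockout hearts and 124 to 145 FPKM in sedentary wild-type hearts. The sum of 4 macrophage markers was 40.4 to 69.4 FPKM in trained labelled knockout hearts and 19.6 to 32.8 FPKM in all others. No marker of either list was at 0 in a whole group. As deposited, lower Trim63 and Klf15 in trained labelled knockout hearts thus stood beside higher fibroblast and macrophage sums and a lower cardiomyocyte sum. FPKM of all genes together were also lower in these hearts, at 331880 to 398370, against 410640 to 507890 in trained wild-type hearts. Marker sums were not rescaled to a common total, so whether a lower cardiomyocyte share remains was not tested. Among trained wild-type hearts, mice 2, 4 and 5, which were low in Trim63, had fibroblast sums of 184, 172 and 188 FPKM, mesothelium sums of 48.2, 38.5 and 22.1 FPKM and cardiomyocyte sums of 18239, 16298 and 16817 FPKM. Mice 1 and 3, which were high in Trim63, had fibroblast sums of 115 and 129 FPKM, mesothelium sums of 2.48 and 4.93 FPKM and cardiomyocyte sums of 20394 and 21053 FPKM. FPKM of all genes together were 462290, 410640 and 425160 in mice 2, 4 and 5, and 507890 and 503220 in mice 1 and 3. The atrial marker sums of trained wild-type mice 4 and 5 were 5493 and 8899 FPKM. Those of mice 1, 2 and 3 were 40.4, 13.5 and 70.6 FPKM. Sedentary wild-type hearts had mesothelium sums of 2.27 to 3.29 FPKM, and their cardiomyocyte sums, as deposited, all lay above those of trained mice 2, 4 and 5. The sum of 5 skeletal muscle markers parted the genotypes without overlap. It was 1480 to 3507 FPKM in trained labelled knockout hearts and 469 to 868 FPKM in trained wild-type hearts, and 2301 to 3324 FPKM in sedentary labelled knockout hearts and 526 to 1195 FPKM in sedentary wild-type hearts, where 1 of its markers was at 0. These markers were drawn from Acta1, Myh4, Myh1, Myh2, Tnnt3 and Ckm. Their sum does not show which of them differed, nor whether the hearts held more skeletal muscle. The sum of 5 endothelial markers was 105 to 136 FPKM in trained labelled knockout hearts and 137 to 178 FPKM in trained wild-type hearts, and 99.1 to 133 FPKM in sedentary labelled knockout hearts and 132 to 165 FPKM in sedentary wild-type hearts. The atrial marker sum reached 8899 FPKM in trained wild-type and 5419 FPKM in trained labelled knockout hearts. Without the 4 hearts with Myl7 above 1000 FPKM, Trim63 differed by -0.55 ± 0.14 with training in labelled knockout hearts and Klf15 by -0.94 ± 0.28 between trained genotypes, and both stayed called. Without them no member was called in wild-type training, with Trim63 at -0.43 ± 0.14, Depp1 at 1.84 ± 0.44, Fkbp5 at 1.19 ± 0.52 and Tsc22d3 at 0.83 ± 0.32.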

How the data were processed

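RNA-seq of 20 hearts was used, with 5 libraries in each of 4 groups taken from the labels. FPKM per gene were deposited by the authors. The submitters' processing notes name HISAT2 2.0.5, featureCounts 1.5.0-p3, DESeq2 1.20.0 and the build mm10, without their roles. Reads were recovered as FPKM times GENCODE M21 exon length, and 96.6% of genes with a length gave reads whole within 0.01 in all libraries. Library sizes behind the FPKM followed median-ratio size factors, so FPKM do not sum to a common total.

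Genes with a mean of at least 0.5 FPKM (13723 of 25851) were fitted on log2(FPKM + 0.5) with limma 3.58.1 in R 4.3.3, in 1 model of 4 groups with 16 residual degrees of freedom and a mean-variance trend. Tests were two-sided, with Benjamini-Hochberg adjustment over all genes within each of 5 comparisons and a threshold of 0.05. Separate cages or litters are not stated, so p-values measure the spread between these mice. In a simulation of the sedentary genotype comparison over 13723 genes, 26, 47, 45 and 48 of 50 genes were called at log2 changes of 0.5, 1, 1.5 and 2, with 13 false calls.

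The members and the 9 lists (137 genes, 133 tested) were chosen with earlier results of these data known. Named are the members, Arntl and Ppargc1a, up to 4 called genes per list and comparison in order of p, and the 3 genes most like each member, of which 1 is not reported here. Nr3c1, Foxo1 and Foxo3 were named after their values were seen. Alternatives were another pseudocount, filter or scaling, voom on recovered reads, only the compared groups, log2 Arntl or the replicate number in the model, and libraries left out. Python 3.11.15, pandas 2.3.3, numpy 2.4.6, scipy 1.17.1 and matplotlib 3.10.9 were used.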

Additional observations from a re-analysis of the deposited data

Results flagged for a closer look

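Of 52 groups of 5 examined, 7 held a value whose gap to its neighbour exceeded Dixon's critical value of 0.71 of the group's range, where chance gives about 1 in 20. Sedentary labelled knockout mouse 1 was set apart for Tsc22d3 (22.8 FPKM, low), Arntl (2.5 FPKM, high) and Nr3c1 (12.7 FPKM, high). Sedentary wild-type mouse 4 was set apart for Ddit4 (102 FPKM, high) and Fkbp5 (6.49 FPKM, high). Trained labelled knockout mouse 3 was high for Arntl at 0.937 FPKM, and trained wild-type mouse 1 was high for Nr3c1 at 8.33 FPKM.

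The training difference in labelled knockout hearts minus that in wild-type hearts was past the threshold for 3 members, Depp1 (-1.99), Arrdc2 (-2.36) and Klf15 (-1.10), given as a description. By limma's interaction test it was also past the threshold for Pink1 (-0.63), Nr0b2 (-0.80), Txn2 (-0.42), Bcat2 (-0.48), Gpt (-0.94) and Kcnip2 (-0.65).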

How the results depend on the processing

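Counts of called genes are given as higher and lower. As reported they were 955 and 867 for genotype in sedentary hearts, 403 and 347 for training in wild-type hearts, 1656 and 2236 for training in labelled knockout hearts, 1713 and 2112 for genotype in trained hearts, and 319 and 686 for the interaction. Leaving out each replicate in turn gave 580 to 1370 and 551 to 1435, 94 to 1051 and 33 to 1260, 1242 to 1705 and 1870 to 2321, 1355 to 1767 and 1777 to 2168, and 119 to 611 and 343 to 1087 in the same order. For members it gave 0 to 5 higher in sedentary hearts, 0 to 6 higher and 0 to 2 lower in wild-type training, 1 to 2 lower in labelled knockout training, 1 lower in trained hearts and 0 to 4 lower in the interaction. With only the compared groups in the fit, 0 members were higher in sedentary hearts, wild-type training had 52 and 9 genes with 0 and 0 members, and trained hearts had 2 members lower. With log2 Arntl as a covariate, sedentary hearts had 273 and 322 genes with 0 members higher, wild-type training 50 and 29 with 0 and 0 members, and the interaction 83 and 183 with 0 members lower. With no filter, wild-type training had 208 and 146 genes with 0 members higher, labelled knockout training had 1 member lower, and the interaction had 204 and 425 genes with 0 members lower. With TPM scaling, 393 genes were lower in sedentary hearts, wild-type training had 186 and 54, labelled knockout training 4052 and 630 with 1 member lower, trained hearts 5128 and 789 with 1 member higher and 0 lower, and the interaction 58 lower with 0 members. Without the 4 hearts with high Myl7, wild-type training had 33 and 6 genes with 0 and 0 members, and the interaction 497 higher. Without the 5 hearts with high Arntl, sedentary hearts had 10 and 9 genes with 0 members higher, wild-type training 1 and 3 with 0 and 0 members, labelled knockout training 4 members lower, trained hearts 2 members lower, and the interaction 1 and 0 genes with 0 members lower. Fewer samples enter these last fits. The cause of the other changes was not tested.

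The direction reversed for Per1 (-0.0417) and Ciart (-0.62) in wild-type training without the 5 high-Arntl hearts, for Cat (0.0029) and Rheb (0.0817) in labelled knockout training with TPM, and for Tsc22d4 (0.0401) in trained hearts with TPM. Same-numbered mice deviated together for some numbers only. Over 30 pairs r ran from -0.278 to 0.484, with 12 over 0.1 and a mean of 0.0869, against -0.0218 for other numbers. The 6 pairs of number 1 had r of 0.251 to 0.364 and those of number 5 had 0.0787 to 0.484, while numbers 2, 3 and 4 each had pairs below 0. Of 20 mice, 7 correlated best on average with their own number. As not every pair was over 0.1 and the labels tie no number to a litter or day, the numbers were not taken to pair the samples. With the replicate block, wild-type training had 804 and 860 genes, and Arrdc2 became called in it and in sedentary hearts, which made 4 members higher in each. The depth of 14.2 to 30.4 M reads limits no member, since all had at least 149 reads.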
